A study of Mus musculus with 12 samples.

Results

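The genes described here make, sense, store, take up and export cholesterol in mouse liver. They were chosen by name and function and comprised 29 of the 22322 gene symbols in the tables. There were 7 enzymes that lead from acetyl-CoA to farnesyl pyrophosphate and 9 enzymes that lead from there to cholesterol. Another 4 proteins act in sterol sensing and switch these enzymes on or off, and 2 serve sterol transport and storage. The others were 5 proteins of sterol efflux and uptake and 2 nuclear receptors for oxidised sterols. All 29 were found, with 78 of the 46585 transcript rows, and 17 of them had more than 1 row. For each gene the row with the highest mean over the 12 samples was used. Expression was measured by RNA sequencing and is given in RPKM, which is the number of reads set against transcript length and library depth. A gene was tested if its mean reached 1 RPKM in at least 1 group, which held for 28 of the 29. The exception was Npc1l1, the sterol uptake channel of the gut, which had 1 read in 1 WT sample at CT12 and none in the other samples.

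Cholesterol is built from acetyl-CoA in a long chain of reactions, first through mevalonate to the isoprenoid farnesyl pyrophosphate, then through squalene and lanosterol to cholesterol. The chain is controlled at transcription. When membranes are poor in sterol, SCAP carries the transcription factor SREBP2 out of the endoplasmic reticulum, SREBP2 is cut free, and genes of the chain are switched on. When sterol is plentiful, the INSIG proteins hold SCAP back. Excess sterol is sensed in oxidised form by the LXR receptors, which switch on exporters of the ABC family. The liver is a main site of cholesterol synthesis, and synthesis follows a daily rhythm.

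The question was how the liver clock bears on these genes. Livers were taken from wild-type (WT) mice, which carried the Bmal1 flox/flox allele with loxP sites around exon 8, and from liver-specific Bmal1 knockout (KO) mice, in which the same allele was combined with a liver-specific CRE whose promoter is not named. BMAL1, encoded by Arntl, pairs with CLOCK to drive the circadian clock. Since the sources name no CRE in the WT group, an effect of CRE and one of losing Bmal1 cannot be told apart. All mice were C57BL/6, 8 weeks old, free to eat at any time, and held in constant darkness for the last 2 days. They were killed at circadian time 0 (CT0, when the lights would have come on) or 12 h later (CT12), which gave 4 groups of 3 samples. The sample records speak of 2 mice per genotype and time and the methods of 3. The 3 samples of a group were treated as 3 mice. Each p-value sets a difference against an estimate of the spread between samples that the 4 groups share.

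The libraries held 11460000 to 19020000 reads, as recovered from the smallest values, and were deepest in WT at CT0 (16900000 to 19020000 reads). KO CT0 replicate 1 stood apart from its group in the synthesis enzymes, and the CT0 results are given with and without it. Markers of hepatocytes (Alb, Ttr, Cps1, Apoa2 and Asgr1) were all detected and summed to between 27100 and 51000 RPKM. Their sum was lower in the 3 KO than in the 3 WT samples at both times, and Alb was the 1 of the 5 that passed the test (log2 difference -0.93 at CT0 and -1.05 at CT12). The log2 differences of Ttr, Cps1, Apoa2 and Asgr1 were positive, at 0.05, 0.37, 0.37 and 0.31 at CT0. At CT12 they were 0.1, 0.09, 0.22 and 0.29. The markers of bile duct cells (Krt19, Krt7, Epcam, Spp1 and Sox9) summed to 93.1 to 152 RPKM in KO against 48.6 to 64.8 in WT at CT0, and to 88.4 to 124 against 27.2 to 50 at CT12. None of these 5 was at 0 in all samples, and Spp1 was the 1 that passed the test between genotypes (log2 difference 1.16 at CT0 and 1.56 at CT12). The other bile duct markers did not share a rise of that size. Krt7 leaned lower in KO (-0.4 at CT0, -0.17 at CT12). Krt19 went from 0.31 to -0.03 between the same times, and Epcam from 0.42 to 0.1. Sox9 was not among the genes tested. At CT12 the summed markers of Kupffer, endothelial, lymphoid and intestinal cells overlapped between KO and WT, and those of stellate cells did not (106 to 138 against 87.3 to 102 RPKM). At CT0 the intestinal markers were apart, at 26.8 to 35.3 RPKM in KO against 36.7 to 47.5 in WT, and their defining member Cdx2 was at 0 in all samples. The part of these differences in the results was not tested, and in bulk liver fewer cells of a type and less RNA per cell cannot be told apart. Arntl itself read 16.4, 15.7 and 15.7 RPKM in WT and 5.92, 5.73 and 7.45 in KO at CT0, with every KO sample below every WT sample. At CT12 it read 1.26, 0.680 and 1.21 in WT and 4.37, 3.59 and 4.01 in KO, with every KO sample above. The row also counts exons outside the floxed one, so at CT12 it is no check of the labels.

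At CT12, 10 of the 28 tested genes were over-expressed in KO livers and 0 were under-expressed (limma, Benjamini-Hochberg adjusted p under 0.05 over 10799 genes). Of all genes tested, 6.97% were over-expressed and 3.49% under-expressed in KO at CT12. The 10 were 9 of the 16 synthesis enzymes and the sterol sensor Insig2. All 16 enzymes had a positive estimate, with a median log2 difference of 0.76, against a median of 0.080 over all genes tested. In 18 of the 28 genes all 3 KO samples lay above all 3 WT samples, which was so for 20.4% of all genes tested. With quantile normalization the calls over all genes moved from 753 higher and 377 lower to 543 and 501, and the 28 genes still gave 10 and 0. In the heat map of all tested genes the enzymes are mostly blue in WT at CT12 and mostly red in the KO samples. The colours are pale in KO CT0 replicate 2 and WT CT12 replicate 2 (enzyme medians 0.07 and -0.11, in log2 against the WT CT0 mean).

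**Figure D1:**
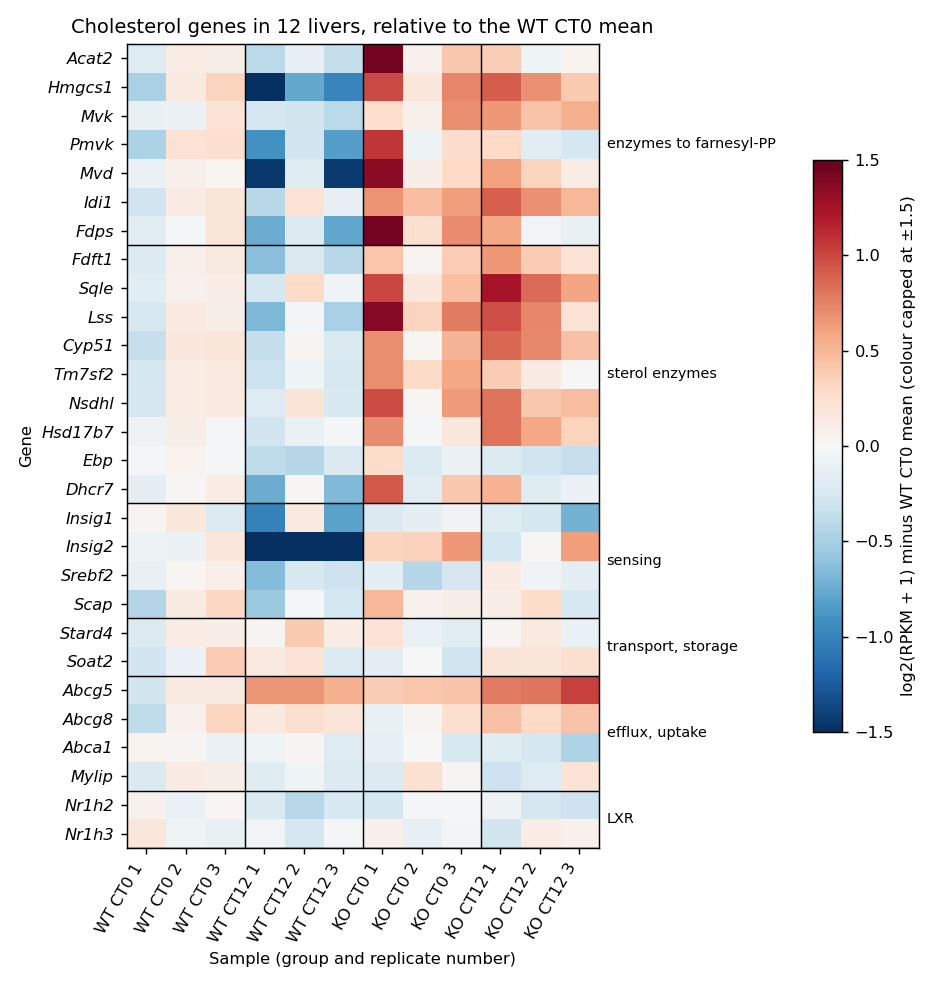
Heat map of the 28 tested genes (rows, ordered by role) in the 12 samples (columns). Colour is log2(RPKM + 1) minus the mean of the 3 WT CT0 samples, capped at 1.5 in either direction. Insig2 in WT at CT12 is beyond the cap, and KO CT0 replicate 1 is the reddest column for most enzymes.

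Hmgcs1, the synthase that makes HMG-CoA at the entry to the mevalonate pathway, changed most among the enzymes. Its RPKM was 69.7, 109 and 124 in WT at CT0, 32.5, 57.1 and 48.8 in WT at CT12, 196, 110.2 and 164 in KO at CT0 and 186, 158 and 129 in KO at CT12. The 3 WT samples at CT12 were the lowest of all 12, and no KO sample came near them. The KO mean at CT12 was 3.41 times the WT mean (158 ± 28.3 against 46.1 ± 12.5 RPKM, SD, n = 3), a log2 difference of 1.77 ± 0.27 (SE, limma adjusted p = 0.0012). The call held in all 20 alternatives tried. Its transcript was not matched in the NCBIM37 annotation used here. The RefSeq promoter of Hmgcs1 (chr13:119690101-119690400, plus strand, GRCm38.p6) is shown because it was the only one of the 24 genes with a promoter entry that held the sterol regulatory element TCACNCCAC, the type of site that SREBP binds. Capitals mark that element, which starts at position -137 from the start site, and 4 CCAAT boxes.
Hmgcs1 promoter: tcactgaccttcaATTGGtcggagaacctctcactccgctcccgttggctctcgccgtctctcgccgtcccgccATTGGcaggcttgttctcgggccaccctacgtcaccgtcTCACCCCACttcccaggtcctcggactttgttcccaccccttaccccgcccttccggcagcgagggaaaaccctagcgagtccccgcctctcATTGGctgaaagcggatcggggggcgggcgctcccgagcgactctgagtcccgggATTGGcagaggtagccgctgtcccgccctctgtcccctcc

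Mvk, mevalonate kinase (chr5:114894278-114910600, plus strand, NCBIM37), is an enzyme of low level in this chain. It read 13.04, 13.3 and 16.5 RPKM in WT at CT0, 11.8, 11.6 and 10.5 in WT at CT12, 17.1, 15.1 and 23.6 in KO at CT0 and 22.9, 19.4 and 21.1 in KO at CT12. The WT samples at CT12 were the lowest 3 of the 12, and the CT12 groups did not overlap. The log2 difference between KO and WT at CT12 was 0.85 ± 0.15 (SE, limma adjusted p = 0.0029), and it too held in all 20 alternatives. Its promoter (chr5:114444019-114444318, plus strand, GRCm38.p6) is shown for its 5 CCAAT boxes, in capitals, between positions -173 and -14. The CCAAT box is a common promoter element bound by the factor NF-Y.
Mvk promoter: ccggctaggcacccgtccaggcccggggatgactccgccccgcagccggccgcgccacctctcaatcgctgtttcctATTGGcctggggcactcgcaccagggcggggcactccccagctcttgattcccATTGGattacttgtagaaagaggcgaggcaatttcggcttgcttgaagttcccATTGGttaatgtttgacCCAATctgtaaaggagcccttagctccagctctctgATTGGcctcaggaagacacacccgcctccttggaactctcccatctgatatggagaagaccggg

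Mvd, mevalonate diphosphate decarboxylase (chr8:124957496-124967322, minus strand), read 15.1, 17.3 and 16.6 RPKM in WT at CT0, 5.35, 14.3 and 5.38 in WT at CT12, 43.4, 17.5 and 20.4 in KO at CT0 and 25.6, 20.9 and 17.7 in KO at CT12. WT replicates 1 and 3 at CT12 were far below the other 10 samples, and replicate 2 lay close to WT at CT0. The KO samples at CT12 were all above the WT samples (log2 difference 1.38 ± 0.35, SE, limma adjusted p = 0.027). Idi1, which isomerises isopentenyl diphosphate (chr13:8884852-8891641, plus strand), read 80.7, 108 and 114 RPKM in WT at CT0, 74.6, 117 and 91.2 in WT at CT12, 160.4, 138 and 155 in KO at CT0 and 187, 161 and 141 in KO at CT12. All 6 KO samples were above all 6 WT samples. At CT12 the log2 difference was 0.80 ± 0.17 (SE, limma adjusted p = 0.011). The Idi1 row used was not matched in the annotation, but sequences elsewhere in the genome match 86.6% of another Idi1 transcript at 95% identity or more, so its values are uncertain.

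The other 3 enzymes before squalene did not pass at CT12, although in each all KO samples were above all WT samples. Acat2, which condenses acetyl-CoA, had means of 24.1 ± 2.62 RPKM in WT and 32.6 ± 5.37 in KO (SD, n = 3, limma adjusted p = 0.38). Pmvk, phosphomevalonate kinase, had means of 39.4 ± 9.88 and 61.5 ± 13.4 RPKM (adjusted p = 0.20). Fdps, which makes farnesyl pyrophosphate and had the highest level of the 16 enzymes, had means of 170 ± 40.1 and 282 ± 79.8 RPKM (adjusted p = 0.13). Copies of at least 95% identity elsewhere cover 96.4% of the Fdps transcript and 44.0% of that of Acat2, and both values are uncertain for that reason.

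Among the sterol enzymes, 5 of 9 were over-expressed in KO at CT12. Fdft1, squalene synthase (chr14:63763990-63796630, minus strand), read 42.5, 51.8 and 54.2 RPKM in WT at CT0, 31.5, 42.4 and 36.8 in WT at CT12, 66.2, 50.7 and 63.9 in KO at CT0 and 77.8, 64.4 and 56.9 in KO at CT12. The CT12 groups did not overlap, and the log2 difference was 0.83 ± 0.15 (SE, limma adjusted p = 0.0042). Exons of Ctsb on the other strand overlap 26.9% of the Fdft1 row and copies elsewhere match 56.3% of it, so reads may be shared.

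Sqle, squalene epoxidase (chr15:59146632-59162747, plus strand), a rate-controlling enzyme of the later chain, read 29.8, 35.04 and 35.8 RPKM in WT at CT0, 27.8, 41.01 and 32.04 in WT at CT12, 67.9, 37.3 and 45.9 in KO at CT0 and 80.2, 61.2 and 50.8 in KO at CT12. The WT groups overlapped each other, and the 3 KO samples at CT12 were above all 6 WT samples. The log2 difference at CT12 was 0.90 ± 0.22 (SE, limma adjusted p = 0.021). Lss, lanosterol synthase (chr10:75994333-76019883, plus strand), read 19.8, 26.2 and 24.95 RPKM in WT at CT0, 14.3, 22.8 and 16.4 in WT at CT12, 61.9, 29.9 and 40.5 in KO at CT0 and 46.7, 39.8 and 27.3 in KO at CT12. All 6 KO samples exceeded all 6 WT samples. Its KO mean at CT12 was 2.13 times the WT mean, a log2 difference of 1.04 ± 0.26 (SE, limma adjusted p = 0.024).

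Cyp51, which removes a methyl group from lanosterol (chr5:4081145-4104746, minus strand), read 36.5, 52.4 and 53.3 RPKM in WT at CT0, 36.2, 48.04 and 40.2 in WT at CT12, 76.6, 47.7 and 66.8 in KO at CT0 and 85.9, 77.8 and 63.7 in KO at CT12. KO replicate 2 at CT0 lay among the WT samples, and at CT12 the genotypes were apart (log2 difference 0.85 ± 0.19, SE, limma adjusted p = 0.015). Hsd17b7, a sterol ketone reductase (chr1:171879666-171899372, minus strand), read 16.5, 18.6 and 17.2 RPKM in WT at CT0, 14.1, 16.2 and 17.1 in WT at CT12, 29.1, 17.2 and 19.6 in KO at CT0 and 31.3, 26.6 and 22.3 in KO at CT12. Again the KO samples at CT12 were above every WT sample (log2 difference 0.72 ± 0.17, SE, limma adjusted p = 0.020). The promoter of Hsd17b7 (chr1:169969156-169969455, minus strand, GRCm38.p6) is shown because, among the called genes with a promoter in the table, it was the only one with the E-box CACGTG, the letters that BMAL1 and CLOCK bind. Capitals mark the E-box at position -143 and 3 CCAAT boxes.
Hsd17b7 promoter: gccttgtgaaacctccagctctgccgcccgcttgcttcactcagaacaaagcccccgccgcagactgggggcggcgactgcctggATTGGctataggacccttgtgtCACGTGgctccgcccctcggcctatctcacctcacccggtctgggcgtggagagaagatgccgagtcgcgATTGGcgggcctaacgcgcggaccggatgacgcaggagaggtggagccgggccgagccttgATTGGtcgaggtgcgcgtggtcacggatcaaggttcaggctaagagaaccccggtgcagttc

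The remaining sterol enzymes were Tm7sf2, Nsdhl, Ebp and Dhcr7. Nsdhl, a sterol dehydrogenase, had means of 27.9 ± 4.84 RPKM in WT and 44.1 ± 7.21 in KO at CT12 (SD, n = 3, log2 difference 0.64, limma adjusted p = 0.086), and all KO samples were above all WT samples. Tm7sf2, a sterol reductase, had means of 77.8 ± 7.27 and 102 ± 14 RPKM and also did not overlap (adjusted p = 0.12). Dhcr7, which makes the last reduction to cholesterol, overlapped at 24.5 ± 7.91 and 36.0 ± 10.4 RPKM (adjusted p = 0.24). Ebp, sterol isomerase, differed least, at 119 ± 9.28 and 124 ± 6.31 RPKM, and the 95% interval of its log2 difference ran from -0.19 to 0.31.

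**Figure D2:**
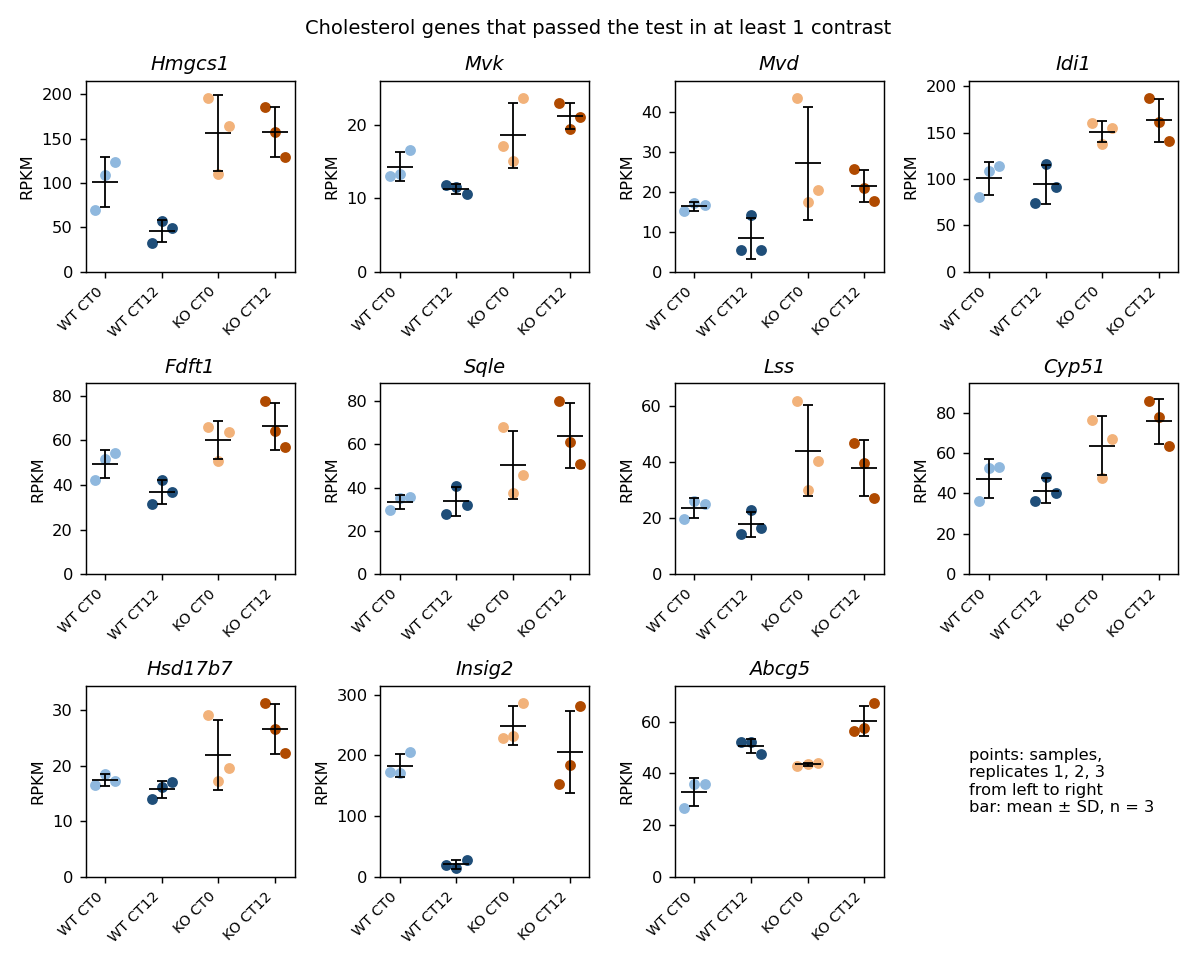
RPKM of the 11 genes that passed the test in at least 1 contrast, by group. Points are samples (replicates 1, 2 and 3 from left to right) and bars are mean ± SD (n = 3). For Hmgcs1, Mvk, Mvd, Fdft1 and Insig2 the WT CT12 samples are the lowest 3 of the 12.

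The calls of 5 enzymes at CT12 depended on which libraries entered the fit. Without WT CT12 replicate 1, KO CT12 replicate 1 or KO CT12 replicate 2, Mvd, Sqle, Lss, Cyp51 and Hsd17b7 each lost the call, which left 5 of the 28 genes, and without WT CT12 replicate 3 the first 4 of these lost it, which left 6. Their limma adjusted p-values in those fits were 0.051 to 0.11. The calls over all genes were also fewer. Without these libraries, in the order named, 5.66%, 6.15%, 4.6% and 4.15% of all genes were called higher, against 6.97% with every library. Over all alternatives the log2 differences ran from 1.17 to 1.8 for Mvd, 0.73 to 1.06 for Sqle and 0.88 to 1.25 for Lss. For Cyp51 they ran from 0.76 to 0.97 and for Hsd17b7 from 0.6 to 0.83.

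Insig2, which holds SCAP in the endoplasmic reticulum when sterol is plentiful, was the gene with the largest change. It read 173, 171 and 205 RPKM in WT at CT0, 18.5, 14.02 and 28.1 in WT at CT12, 229, 232 and 286 in KO at CT0 and 152, 184 and 281 in KO at CT12. The 3 WT samples at CT12 were far below the other 9, which lay between 152 and 286 RPKM. At CT12 the KO mean was 10.2 times the WT mean, a log2 difference of 3.29 ± 0.24 (SE, limma adjusted p = 5.7e-06). In WT the CT0 mean was 9.03 times the CT12 mean (log2 difference -3.16 ± 0.24, adjusted p = 9.7e-06). In KO the change with time was -0.32 ± 0.24 (adjusted p = 0.50). The difference between these changes, the interaction of genotype and time, was 2.85 ± 0.34 (95% interval 2.10 to 3.59, adjusted p = 0.0019). It was the only 1 of the 28 genes called for an interaction, where 1.07% of all genes were called higher and 0.417% lower. The calls held in every alternative. With the row used or the sum of all rows, the interaction ranged from 2.60 to 3.10.

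Insig2 (chr1:123200930-123229166, minus strand, NCBIM37) has 10 transcript rows. The row used was the shortest, of 204 bases and 2 exons, with 42 to 784 reads per library. All 10 rows fell from CT0 to CT12 in WT, by 6.05 to 9.03 times, and all 10 passed for KO against WT at CT12, for time in WT and for the interaction when every transcript row was tested. Over all 26512 rows tested the shares called in either direction were 10.6%, 12.4% and 1.61%. The rows share exons and reads, so they are not independent measures. By their ends, 2 of the rows begin at or near the start site of RefSeq promoter 1, 1 at that of promoter 2, 6 at or near that of promoter 3 and 1 further downstream. The 3 promoters are shown because rows begin at or near each of their start sites (promoter 1 at chr1:121332540-121332839, promoter 2 at chr1:121327975-121328274 and promoter 3 at chr1:121327629-121327928, all on the minus strand of GRCm38.p6). Rows that share reads cannot tell which promoter was in use. Capitals mark CCAAT boxes, which only promoter 1 holds, and none of the 3 holds the E-box or the sterol element.
Insig2 promoter 1: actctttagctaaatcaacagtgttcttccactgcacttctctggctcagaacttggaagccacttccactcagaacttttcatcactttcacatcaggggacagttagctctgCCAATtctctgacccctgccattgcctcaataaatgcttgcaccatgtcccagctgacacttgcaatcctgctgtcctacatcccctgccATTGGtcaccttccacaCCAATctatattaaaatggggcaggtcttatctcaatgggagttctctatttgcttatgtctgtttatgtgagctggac
Insig2 promoter 2: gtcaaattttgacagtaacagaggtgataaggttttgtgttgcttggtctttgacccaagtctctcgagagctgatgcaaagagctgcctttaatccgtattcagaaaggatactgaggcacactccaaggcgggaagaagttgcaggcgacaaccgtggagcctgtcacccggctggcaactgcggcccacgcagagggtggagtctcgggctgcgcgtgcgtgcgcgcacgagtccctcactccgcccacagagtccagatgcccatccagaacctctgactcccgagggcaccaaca
Insig2 promoter 3: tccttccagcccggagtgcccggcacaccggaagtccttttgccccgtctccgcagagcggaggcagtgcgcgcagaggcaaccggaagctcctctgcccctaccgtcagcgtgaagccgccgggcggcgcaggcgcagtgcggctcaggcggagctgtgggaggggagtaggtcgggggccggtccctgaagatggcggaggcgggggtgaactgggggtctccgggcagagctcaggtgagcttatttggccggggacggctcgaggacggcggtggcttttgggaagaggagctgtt

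**Figure D3:**
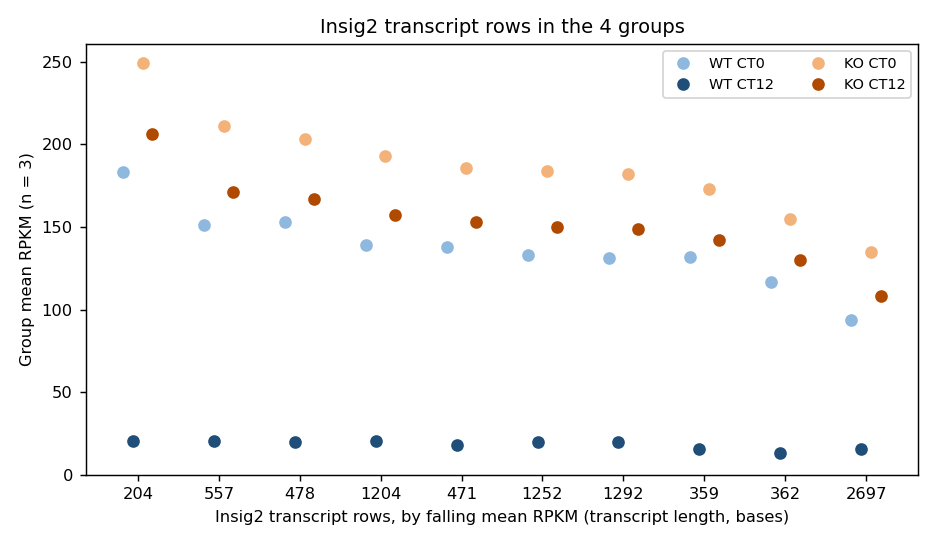
Group mean RPKM (n = 3) of the 10 Insig2 transcript rows, ordered by mean level and marked by length in bases. In every row WT at CT12 is the lowest group, at 13.4 to 20.7 RPKM.

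The other 3 proteins of sterol sensing did not pass any test. Insig1, the close relative of Insig2, read 92.5, 209 and 108 RPKM in WT and 165, 157 and 115 in KO at CT12, with WT replicate 2 above every KO sample. Its log2 difference at CT12 was 0.17 with a 95% interval of -0.37 to 0.71, and a copy elsewhere matches 76.7% of its transcript. Srebf2, which encodes SREBP2, had means of 7.03 ± 0.561 RPKM in WT and 5.64 ± 0.641 in KO at CT0, and 5.12 ± 0.896 and 6.89 ± 0.769 at CT12 (SD, n = 3). KO was below WT at CT0 and above it at CT12 without overlap, but neither difference passed (adjusted p = 0.36 and 0.088), nor did the interaction of 0.65 ± 0.18 (adjusted p = 0.12). Scap, the escort of SREBP2, overlapped at both times, with group means of 22.7 to 32.5 RPKM, and 35.9% of its row is overlapped by a gene on the other strand.

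At CT0 0 of the 28 genes passed (limma), and 10 had an unadjusted p under 0.05. The share of all genes under that unadjusted threshold was not counted, here or for the later contrasts. Over all genes tested 1.02% were over-expressed and 0.843% under-expressed in KO at CT0. The estimates leaned upwards for the enzymes, with 15 of 16 positive and a median log2 difference of 0.53, against 0.011 over all genes tested. All 3 KO samples were above all 3 WT samples in 8 of the 28 genes, against 11.3% of all genes tested. The largest estimates were 0.82 ± 0.26 for Lss (SE, adjusted p = 0.15) and 0.80 ± 0.28 for Fdps (adjusted p = 0.19). The lowest adjusted p was 0.10, for Tm7sf2, with means of 90.8 ± 13.6 RPKM in WT and 131 ± 18.9 in KO.

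In the groups at CT0 the library that stood apart was KO CT0 replicate 1. It had the highest value of all 12 samples in 10 of the 16 enzymes. For Fdps it read 676 RPKM against 294 and 409 in the other KO samples at CT0, and for Acat2 82.0 against 30.9 and 39.7. Its correlation with the other 2 was 0.981 and 0.979 (Pearson's r of log2 values across tested genes, which are not independent replicates), and 0.982 to 0.989 in the other pairs within groups. Its hepatocyte markers summed to a value within the range of the other KO samples at CT0 (33300 to 38000 RPKM), and its bile duct markers to 93.1, the lowest of the 3. Without it the median log2 difference of the enzymes at CT0 fell from 0.53 to 0.28, and 0 of the 16 passed in either case (limma, 9 with and 4 without it at an unadjusted p under 0.05). At CT12, 11 genes in place of 10 were called without it, with Nsdhl added (log2 difference 0.64, limma adjusted p = 0.045). Other libraries also lay to 1 side of their groups. KO CT12 replicate 1 was the highest of its group in 16 of the 16 enzymes and of all 12 samples in 5, and WT CT12 replicate 2 was the highest of its group in 13. WT CT0 replicate 1 and KO CT0 replicate 2 were each the lowest of their group in 16 of 16.

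**Figure D4:**
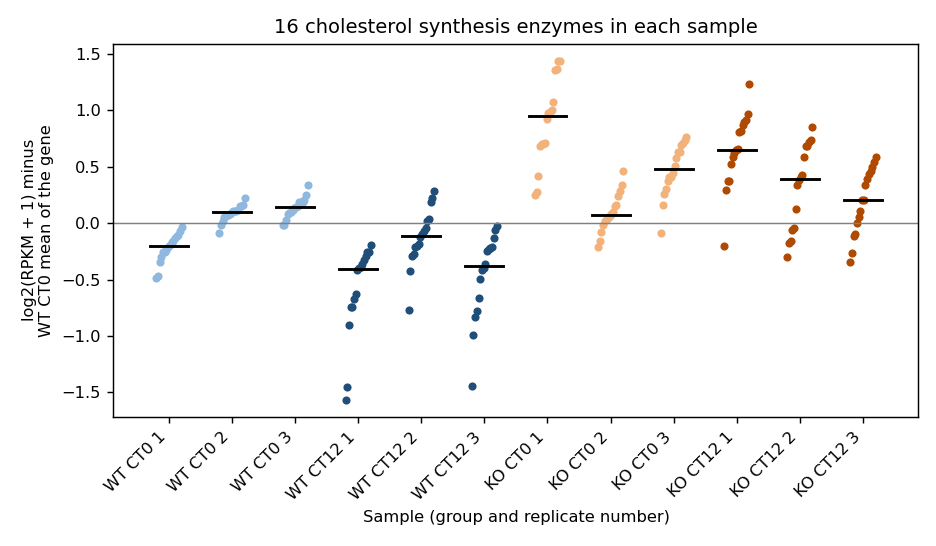
The 16 synthesis enzymes in each sample, as log2(RPKM + 1) minus the mean of the gene in WT at CT0. Points are enzymes and black lines are medians, which are lowest in WT CT12 replicates 1 and 3 (-0.41 and -0.38) and highest in KO CT0 replicate 1 (0.95).

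**Figure D5:**
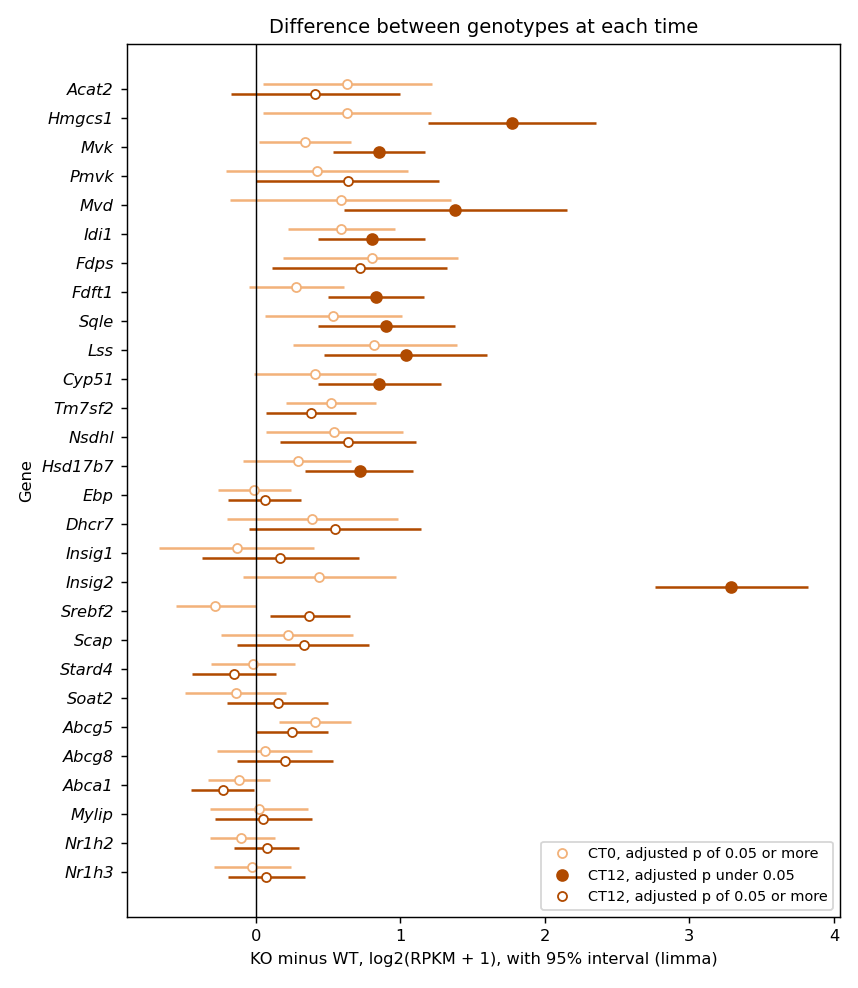
Difference between KO and WT in log2(RPKM + 1) for the 28 tested genes at CT0 (light) and CT12 (dark), with 95% intervals from limma. Filled points passed an adjusted p of 0.05, which 10 genes did at CT12 and 0 at CT0, and Insig2 at CT12 stands apart at 3.29.

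For the 9 called enzymes the difference between genotypes was not shown to differ between CT0 and CT12. The largest interaction among them was 1.14 ± 0.38 for Hmgcs1 (95% interval 0.32 to 1.96, limma adjusted p = 0.21). For Mvd it was 0.79 ± 0.50 (adjusted p = 0.57), for Fdft1 0.55 ± 0.21 (adjusted p = 0.30) and for Mvk 0.51 ± 0.21 (adjusted p = 0.33). Over the 16 enzymes the median interaction was 0.22, against 0.067 over all genes tested, with 13 positive. Without KO CT0 replicate 1 the median was 0.48, against 0.082 over all genes tested, with 15 positive. In either case 0 of the 16 passed (limma). The comparisons of genotype and of time share samples.

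From CT0 to CT12 in WT, 1 of the 28 genes rose and 2 fell, where 3.71% of all genes rose and 7.88% fell (limma). In the same samples the summed markers of 4 other cell types were lower at CT12 without overlap, at 70.7 to 107 against 109 to 148 RPKM for Kupffer cells, 87.3 to 102 against 118 to 159 for stellate cells, 52.7 to 62.8 against 78.8 to 97.4 for endothelial cells and 3.66 to 5.07 against 5.94 to 6.62 for lymphocytes. Of the 16 of their genes that were tested Dcn, a stellate cell marker, was the 1 that fell (-0.6, limma adjusted p = 0.013). Krt7, a bile duct marker, also fell (-0.75, limma adjusted p = 0.032), while the summed bile duct markers overlapped (27.2 to 50 against 48.6 to 64.8 RPKM). The part of these markers in the results was not tested. Hmgcs1 and Insig2 fell. The change of Hmgcs1 was -1.11 ± 0.27 (SE, adjusted p = 0.021), and it lost the call without WT CT0 replicate 2 or 3 or WT CT12 replicate 1 (adjusted p = 0.074, 0.081 and 0.078). All 16 enzymes had a negative estimate, with a median of -0.33 against -0.068 over all genes tested. With WT CT12 replicate 2 left out, 4 genes fell, with Mvd (-1.44, adjusted p = 0.013) and Insig1 (-0.91, adjusted p = 0.0063) added. Without KO CT0 replicate 1 the 2 added were Mvd (-1.02, adjusted p = 0.037) and Ebp (-0.34, adjusted p = 0.020). In KO 0 of the 28 genes passed between CT0 and CT12 (limma, 5 at an unadjusted p under 0.05), where 1.1% of all genes rose and 1.32% fell. The KO estimates of the enzymes had a median of -0.08, against -0.002 over all genes tested, with 8 of 16 positive. Without KO CT0 replicate 1 the median was 0.15, against 0.013 over all genes tested, with 10 of 16 positive.

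The gene that rose in WT was Abcg5 (chr17:85057574-85082351, minus strand, NCBIM37), which with Abcg8 forms the pump that sends sterol into bile. It read 26.6, 35.9 and 35.9 RPKM in WT at CT0, 52.04, 52.1 and 47.4 in WT at CT12, 42.7, 43.5 and 44.02 in KO at CT0 and 56.5, 57.4 and 67.1 in KO at CT12. All CT12 samples were above all CT0 samples, in both genotypes together. The change with time was 0.62 ± 0.11 in WT (SE, limma adjusted p = 0.0053) and 0.46 ± 0.11 in KO (adjusted p = 0.06). The interaction was -0.16 with a 95% interval of -0.51 to 0.20 (adjusted p = 0.76). The call in WT held in all 20 alternatives, and that in KO passed in 3 of 19, without WT CT0 replicate 1 among them (adjusted p = 0.025).

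The remaining genes of efflux, storage and sterol sensing by LXR passed no test. Abcg8, the partner of Abcg5, lies next to it on the other strand, and 2.48% of the Abcg5 row is overlapped by Abcg8. Its group means were 27.9 to 36.2 RPKM, highest in KO at CT12. Abca1, which loads cholesterol onto lipoproteins, had group means of 37.1 to 45.8 RPKM and a log2 difference of -0.23 at CT12 (95% interval -0.45 to -0.01, adjusted p = 0.18). Nr1h3, which encodes LXR alpha, lay at 38.6 to 41.6 RPKM in the 4 groups, and Nr1h2, which encodes LXR beta, at 10.3 to 12.8. Mylip, a ubiquitin ligase switched on by LXR that limits lipoprotein uptake, lay at 3.13 to 3.70 RPKM. Soat2, which esterifies cholesterol for storage, lay at 12.3 to 15.8 RPKM, and Stard4, a carrier of sterol between membranes, at 31.1 to 35.8. For these 7 genes the 95% interval of the log2 difference at CT12 stayed within -0.45 and 0.53. Over the 12 tested genes that were no synthesis enzymes the median log2 difference at CT12 was 0.16.

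Among the 24 genes with a RefSeq promoter (32 promoters of 300 bases, 250 before to 50 after the start, GRCm38.p6, both strands searched), the CCAAT box was found in 19. That was 79.2% of the genes, against 41.1% of the 27025 genes in the table. The E-box was found in 5, Hsd17b7, Dhcr7, Insig1, Scap and Abca1, which was 20.8% against 8.09%. The sterol element was found in 1 against 1.44%. Of the 11 genes called in any contrast, 9 had a promoter in the table, and all 9 held the CCAAT box. A match is a description of the letters, and binding was not measured. The genes without an entry were Fdps, Fdft1, Sqle, Stard4 and Soat2.

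A list of 26 other genes of sterol metabolism, all of which were tested, was read against the same shares of all genes. At CT12 1 was over-expressed and 2 were under-expressed in KO (6.97% and 3.49% of all genes), and at CT0 1 was over-expressed and 0 under-expressed (1.02% and 0.843% of all genes). Sc4mol, the sterol methyl oxidase that acts between Cyp51 and Nsdhl, was the 1 over-expressed at CT12, with means of 84.8 RPKM in WT and 153 in KO (log2 difference 0.84 ± 0.20, SE, limma adjusted p = 0.018). Srebf1, which encodes the SREBP of fatty acid synthesis, read 58.8, 106 and 60.03 RPKM in WT and 39.7, 36.3 and 31.4 in KO at CT12, and was under-expressed (-0.99 ± 0.21, adjusted p = 0.0094). Nceh1, a cholesteryl ester hydrolase, was also under-expressed at CT12 (means 7.4 and 4.08 RPKM, adjusted p = 0.0093). Tmem97, a sterol-responsive membrane protein, was the 1 over-expressed at CT0 (means 36.1 and 57.5 RPKM, adjusted p = 0.030).

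Between times in WT, 1 of the 26 rose and 3 fell (3.71% and 7.88% of all genes). Nceh1 rose (0.63, limma adjusted p = 0.020), and Lipa (-0.53, adjusted p = 0.023), Sc5d (-0.56, adjusted p = 0.038) and Rdh11 (-1.0, adjusted p = 0.048) fell. In KO 0 rose and 2 fell (1.1% and 1.32% of all genes), Srebf1 (-1.25, adjusted p = 0.013) and Lpcat3 (-0.59, adjusted p = 0.049). None of the 26 passed for the interaction (limma, 5 at an unadjusted p under 0.05). The calls of Sc4mol, Tmem97, Nceh1 between times, Lipa, Sc5d, Rdh11 and Lpcat3 were each lost without at least 1 library.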

How the data were processed

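The authors made libraries with a TruSeq RNA kit, which does not mark strand, and deposited 1 table per sample of RPKM values for Ensembl transcripts. The submitters' processing notes name TopHat2, bedtools 2.19.1 and the mm9 build, which is NCBIM37. How reads shared by transcripts or by copies of a gene were counted is not given in the sources used here. Depth was recovered from steps of RPKM times transcript length (GENCODE vM1), and 96.44% to 96.98% of low values lay within 0.1 reads of a step. Intervals are 95% confidence intervals of a log2 difference, computed from the spread between samples within groups.

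The highest row per symbol was kept, and genes with a group mean of at least 1 RPKM were fitted as log2(RPKM + 1) with limma 3.58.1 in R 4.3.3 (4 group means, trended prior). Fold changes on this scale understate low genes. Benjamini-Hochberg adjustment covered 10799 genes. The step was tested on simulated data. The members, gene lists, tests and markers were chosen with earlier results of these data known. All members are named, those called with every value. Of the 26 other genes, the 6 with the largest called changes were to be named, and Lipa and Sc5d were added after their values were seen to complete a count. Promoters came from RefSeq, were scanned for 3 motifs, and copies were sought with blastn 2.17.0 (95% identity over 100 bases). Python 3.11.15, pandas 2.3.3 and matplotlib 3.10.9 were used.

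Alternative fits used a pseudocount of 0.1, every gene unfiltered, a filter of 5 RPKM, quantile normalization, summed or separate transcript rows, a replicate block, only the groups compared, and each library left out.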

Additional observations from a re-analysis of the deposited data

Results flagged for a closer look

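The effect of the knockout on Insig2 differed between times: the difference between KO and WT in log2(RPKM + 1) was 0.44 ± 0.24 (SE) at CT0 and 3.29 ± 0.24 at CT12, and the interaction was 2.85 (limma adjusted p = 0.0019). All 3 KO samples were above all 3 WT samples at both times. The interaction was called with each library left out in turn.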

How the results depend on the processing

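No called member changed direction under any alternative. The calls at CT12 numbered 10 and ranged from 5 to 11 with 1 library left out, where 4.15% to 7.73% of all genes were called higher. They fell to 4 with no filter, where 2.41% of all genes were called higher, against 6.97% with the filter of 1 RPKM. The fit with no filter tests more genes and also estimates the trended prior from them. Between times in WT the 3 calls ranged from 2 to 5 with 1 library left out. Over all genes 207 to 468 rose and 429 to 926 fell in those fits, against 401 and 851 with every library. Between times in KO 1 call, Abcg5, was made with a filter of 5 RPKM and 1 with quantile normalization, and 0 to 1 with 1 library left out. At CT0 0 members and for the interaction 1 member were called by limma in every fit that left out a library. With the replicate number as a replicate block the calls were 0 at CT0, 10 at CT12, 3 between times in WT, 0 in KO and 1 for the interaction, as without it, while of the other sterol genes Sc5d, Rdh11 and Lpcat3 lost their calls (adjusted p = 0.062, 0.072 and 0.073). Sc5d and Rdh11 also lost them with quantile normalization (adjusted p = 0.055 and 0.053). Over all tested genes, samples with the same number in different groups did not on average deviate together (mean r 0.00825, range -0.0665 to 0.139, against -0.00407 for other numbers). The labels do not say what the numbers stand for, and such a correlation cannot show a pairing that touches few genes. A short row, as for Insig2, and 3 samples per group limit the precision.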
